A study of Mus musculus with 28 samples.

Results

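The livers of mice given INT-787 were compared directly with those of mice given obeticholic acid (OCA), at the same dose and after the same time. The comparison took in the 9 mice labelled INT-787 30 mg/kg and the 9 labelled OCA 30 mg/kg, which are 18 of the 28 mice sequenced. All 18 were male B6.V-Lepob/JRj mice, which lack leptin, bought at 5 weeks of age, fed the Amylin liver NASH (AMLN) diet for 14 weeks before treatment and during it, and dosed by mouth once daily for 2 weeks. The other 10 mice had the same genotype and diet and received vehicle (carboxymethylcellulose). They entered no test here, and their values are given only to place those of the treated mice. Leptin deficiency limits the model to obesity of that origin, and every mouse carried it, vehicle mice included.

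OCA is a semisynthetic bile acid, and both compounds are agonists of the farnesoid X receptor (FXR), a nuclear receptor that senses bile acids. In hepatocytes, active FXR induces the repressor SHP (*Nr0b2*) and the pumps that send bile acids and phospholipid into bile, and it lowers bile acid synthesis. In a steatotic, inflamed liver, hepatocytes also make acute phase proteins, stellate cells turn into collagen-producing myofibroblasts, and macrophages that carry lipid collect around scars.

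The values were read counts per gene in polyadenylated RNA. Totals ranged from 10990531 to 22421506 per OCA mouse and from 12513715 to 22128216 per INT-787 mouse, and the difference between group means did not pass an exact permutation test (two-sided p = 0.892, n = 9 and 9). Levels are given as CPM, the counts of a gene per 1000000 counts of its mouse, scaled between mice by the trimmed mean of M values (TMM). Of 21935 genes, 12263 had enough counts to be tested, with edgeR's quasi-likelihood test. A log2 fold change is INT-787 over OCA, so a positive value means more RNA with INT-787, and a gene was counted as different at a Benjamini-Hochberg adjusted p of at most 0.05 over all tested genes. Liver identity was clear in every library, since the 12 hepatocyte markers summed to between 116000 and 221000 CPM in the treated mice. Skeletal muscle markers summed to at most 1.29 CPM and pancreatic acinar markers to at most 0.498 CPM, and the fat cell genes *Adipoq*, *Retn*, and *Lep* were at 0 in all 18 mice.

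One library in each group stood apart. OCA replicate 8 was the highest or the lowest of the OCA mice at 42.1% of tested genes and INT-787 replicate 8 of the INT-787 mice at 41.6%, whereas the other 16 mice ranged from 12.2% to 25.8%. OCA replicate 8 lay above all other OCA mice at 27 of 34 noncollagen matrix genes, 15 of 18 cholangiocyte genes, and 20 of 33 cell cycle genes, and below them at 21 of 34 cytochrome P450 and flavin monooxygenase genes. INT-787 replicate 8 lay above all other INT-787 mice at 32 of 33 interferon and antigen presentation genes and at 16 of 27 cholesterol synthesis genes, and below them at 14 of 20 collagens and 19 of 24 endothelial genes. Over all 12263 tested genes, OCA replicate 8 lay above all other OCA mice at 2686 and below them at 2473. For INT-787 replicate 8 these counts were 2529 and 2578. Calls named below that were lost when either of these mice was left out are given with the adjusted p of that fit.

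**Figure D1:**
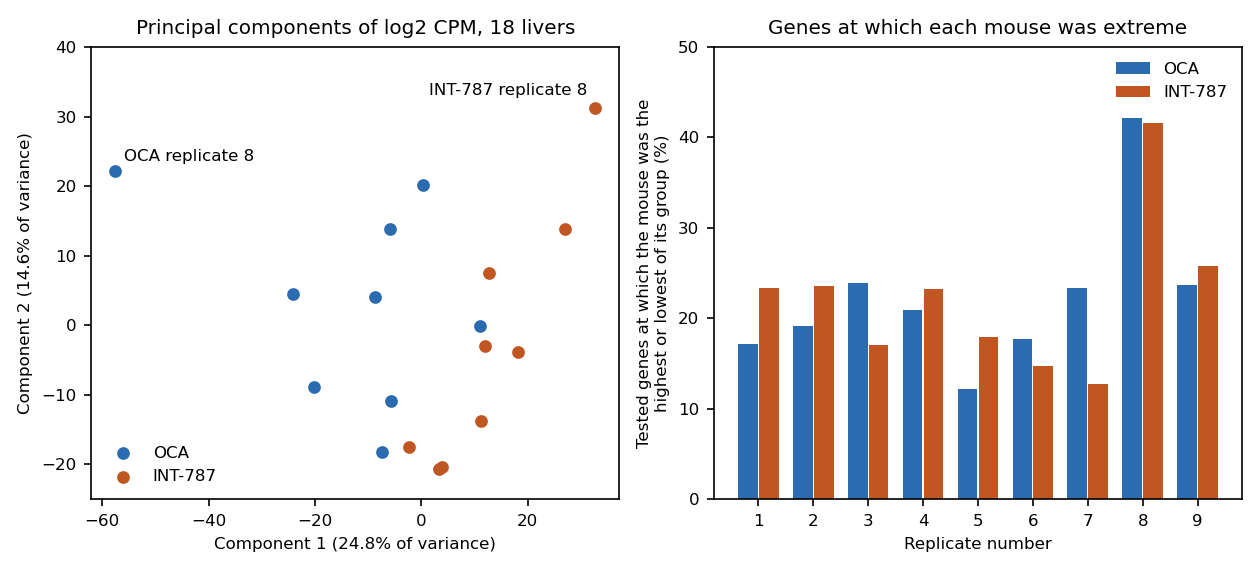
Left, the first and second principal components of log2 CPM for the 18 treated livers, one point per mouse. Right, bars giving the percent of tested genes at which each mouse was the highest or lowest of its group of 9. Replicate 8 of each group lies at an edge of the left plot and reaches 42.1% (OCA) and 41.6% (INT-787) on the right.

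The compounds differed at 575 genes, 4.69% of those tested. Of these, 262 (2.14%) were higher and 313 (2.55%) lower with INT-787, while the median log2 fold change of all tested genes was 0.00187. Differences were moderate, with a median size of 0.62 on the log2 scale among the 575, and 117 genes differed by a log2 fold change of 1 or more, 32 of them higher and 85 lower with INT-787. The CPM ranges of both groups did not overlap at all for 66 genes (0.538% of those tested), 29 higher and 37 lower. Without OCA replicate 8 the test found 416 genes (3.37%), 392 of them among the 575. Without INT-787 replicate 8 it found 505 (4.09%), 452 of them among the 575. With both mice left out, 429 genes were found and 374 were shared. DESeq2 found 914 genes, 430 higher and 484 lower. The balance of directions depended on the model. With mice of the same replicate number fitted as a block, 378 genes were higher and 329 lower with INT-787. With neighbouring label numbers as a block (16 mice), 423 were higher and 312 lower.

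FXR and bile acid genes came first, since they report on the receptor that both compounds bind. Of 27 tested genes on this list, 5 (18.5%) were higher with INT-787 and 0 lower, beside 2.14% of all genes that were higher. The list's median log2 fold change was 0.28, and leaving out OCA replicate 6 gave 3 calls. Relative to the means of the same 10 vehicle mice, and without a test, the median log2 ratio was 0.18 for OCA and 0.34 for INT-787.

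*Abcb11*, the canalicular bile salt export pump, had a lowest, median, and highest level of 595, 862, and 1065 CPM in the OCA mice and of 903, 1045, and 1560 CPM in the INT-787 mice, with a vehicle mean of 360 CPM. The treated groups overlapped, and every treated mouse lay above the highest vehicle mouse, which had 498 CPM. The log2 fold change between the compounds was 0.51 ± 0.13 (SE; adjusted p = 0.0301), and the call was lost without OCA replicate 8 (adjusted p = 0.0541). The aldo-keto reductase *Akr1b7* (log2 fold change 1.28, adjusted p = 0.0284), the organic anion uptake carrier *Slco1a4* (0.87, adjusted p = 0.0127), and the oxysterol and bile acid enzyme *Cyp27a1* (0.43, adjusted p = 0.0116) were also higher.

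Other standard readouts of FXR did not pass the test. *Nr0b2* had 31.2, 51.4, and 61.9 CPM (lowest, median, highest) with OCA and 40.1, 64.2, and 86.7 CPM with INT-787, against a vehicle median of 19.4 CPM. The treated groups overlapped widely, and the log2 fold change was 0.45, with a 95% interval from 0.14 to 0.76 and an adjusted p of 0.0838. The basolateral exporter subunit *Slc51b* had a log2 fold change of 0.64 (interval 0.23 to 1.05, adjusted p = 0.0655), with vehicle at 2.20 CPM, OCA at a median of 9.59 CPM, and INT-787 at a median of 20.6 CPM. Its partner *Slc51a* was too low to test, with 256 counts in the 18 mice together. The phospholipid flippase *Abcb4* had a log2 fold change of 0.32 (interval 0.09 to 0.55, adjusted p = 0.09996). *Cyp7a1*, which catalyses the rate-limiting step, averaged 59.5 CPM with vehicle and had medians of 9.65 CPM with OCA and 13.5 CPM with INT-787, and its log2 fold change was 0.28 (interval -0.31 to 0.86). *Cyp8b1*, the sterol 12-alpha-hydroxylase, averaged 119 CPM with vehicle, and the interval between the compounds ran from -1.78 to 1.43. Replicate 4 of each group was far above its own group for *Cyp8b1*, at 28.6 CPM with OCA and 43.4 CPM with INT-787. Among the 22 listed genes that did not pass, 8 had a 95% interval wholly above 0 and 0 had one wholly below. These intervals are not adjusted for the number of genes tested. Of all 12263 tested genes, called ones included, 2370 had an unadjusted p under 0.05 in either direction.

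**Figure D2:**
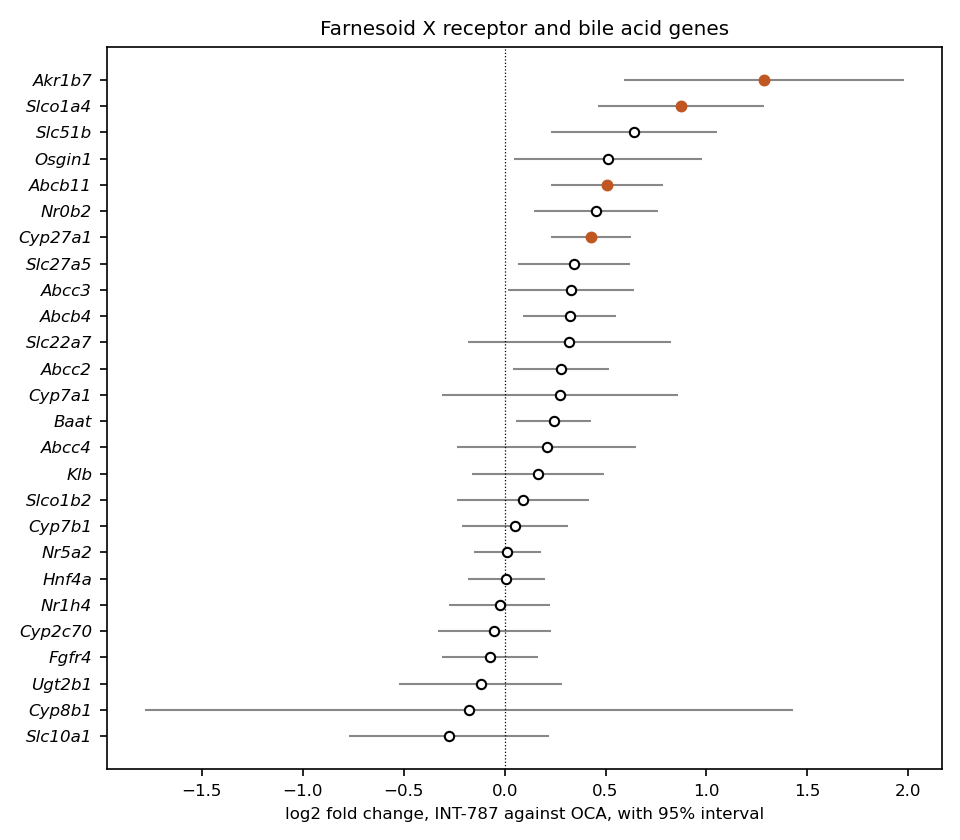
Log2 fold change of INT-787 over OCA for 26 of the 27 tested FXR and bile acid genes, with horizontal lines for 95% intervals; filled points passed the test and open points did not. The 4 filled points lie to the right of 0, and the interval of *Cyp8b1* runs from -1.78 to 1.43.

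Single genes were named by the size of their change (the 12 largest in each direction that also passed without either replicate 8 and averaged at least 5 CPM) or by having one of the 10 smallest p, as *Rgs8* and *Acad12* were. *Sema3b*, a secreted semaphorin, had the smallest p of all. It had 4.75, 6.48, and 10.1 CPM (lowest, median, highest) with OCA and 17.6, 22.1, and 28.9 CPM with INT-787, and the vehicle mean was 8.77 CPM. Every INT-787 mouse was above every OCA mouse, and the OCA median was below the lowest vehicle mouse (7.57 CPM). The difference was 3.18-fold (log2 fold change 1.67 ± 0.13, adjusted p = 8.28e-08). *Ptgds*, a prostaglandin D synthase, ranged from 16.1 to 65.2 CPM with OCA and from 69.2 to 417 CPM with INT-787, with a vehicle mean of 0.729 CPM. Again the groups did not overlap, and *Ptgds* was 3.98-fold higher with INT-787 (adjusted p = 0.00351). The membrane serine protease *Tmprss4* was 3.27-fold higher (adjusted p = 1.84e-04) without overlap, from a vehicle mean of 2.00 CPM. *Rgs8*, a regulator of G protein signaling, had few counts but a clear difference, with 0.0956 to 0.696 CPM under OCA and 1.21 to 6.65 CPM under INT-787 (adjusted p = 9.18e-08). *Acad12*, an acyl-CoA dehydrogenase family member, was 2.15-fold higher (adjusted p = 4.45e-06), and the water channel *Aqp4* was 2.21-fold higher (adjusted p = 0.00396). On the lower side, *Sprr1a*, a cornified envelope protein, was 5.95-fold lower with INT-787 (adjusted p = 6.49e-05) and did not overlap. *Serpina1e*, one of the mouse copies of alpha-1 antitrypsin, averaged 51.2 CPM with vehicle and had medians of 6.88 CPM with OCA and 2.32 CPM with INT-787 (adjusted p = 0.00155), with both groups below the vehicle mean.

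**Figure D3:**
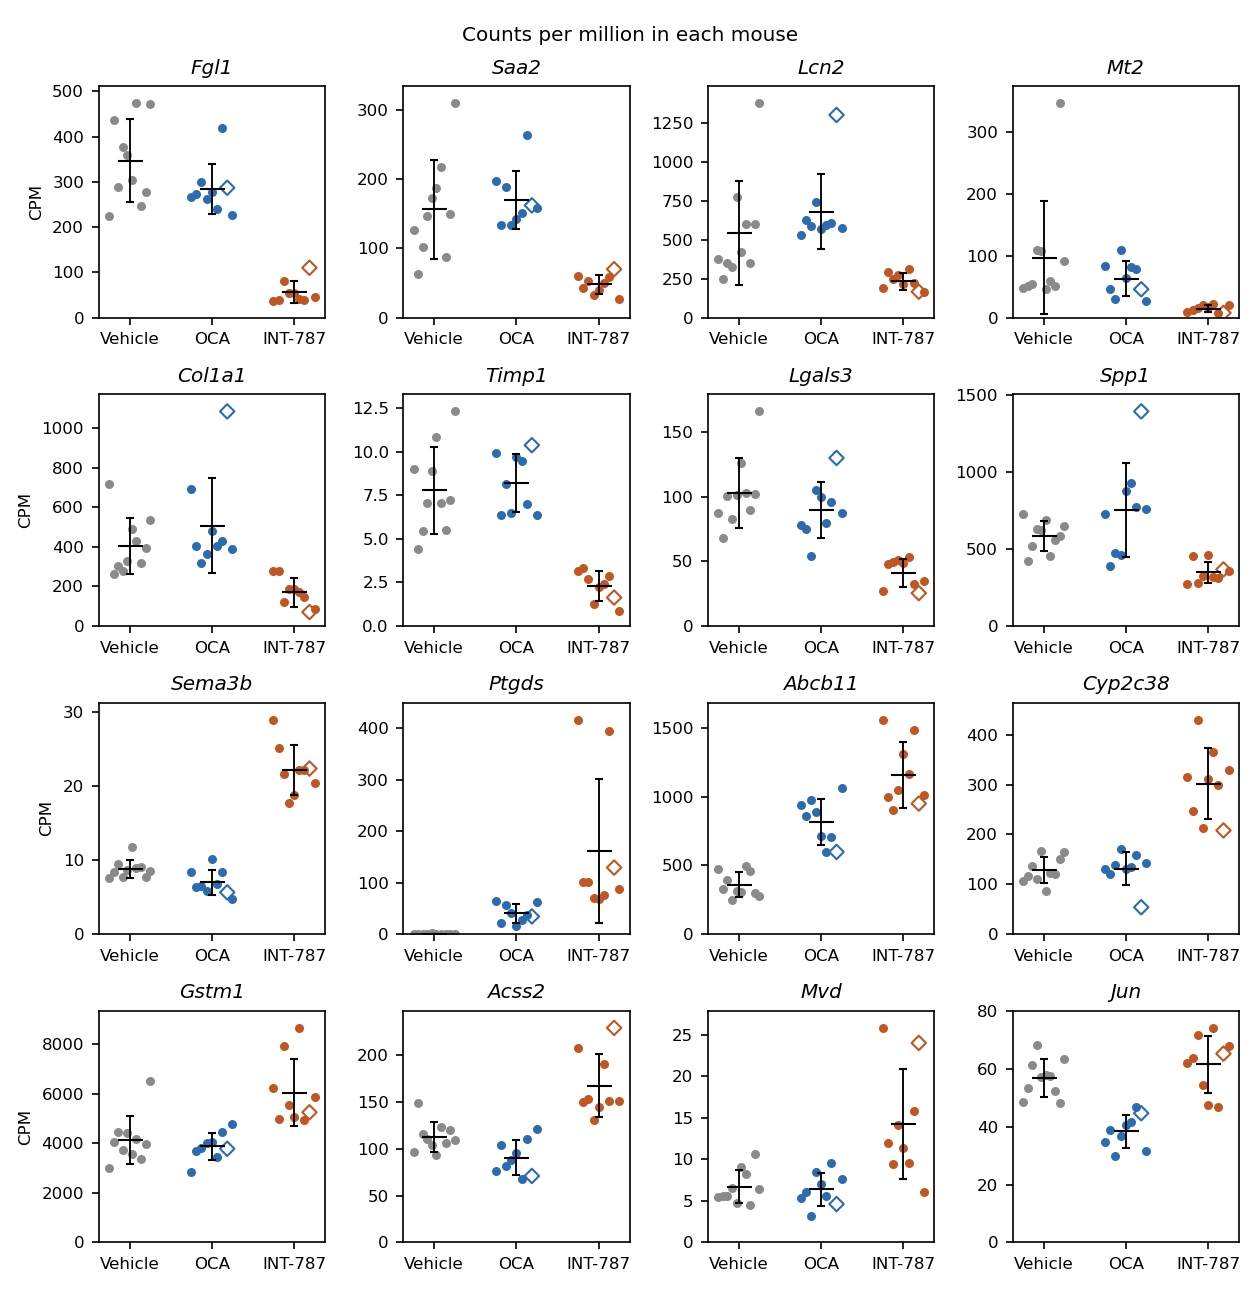
CPM (linear axes from 0) in each mouse for 16 named genes, with vehicle in gray, OCA in blue, and INT-787 in orange; bars are mean ± SD and open diamonds mark replicate 8 of the treated groups. For *Fgl1*, *Saa2*, *Lcn2*, *Col1a1*, *Timp1*, *Lgals3*, and *Mt2* all INT-787 mice lie below all OCA mice, and for *Sema3b*, *Ptgds*, *Cyp2c38*, *Gstm1*, and *Acss2* all lie above.

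Acute phase genes were the list with the largest share of differences. Of 34 tested genes of the acute phase, the interleukin 6 (IL-6) response, and the metallothioneins, 18 (52.9%) were lower with INT-787 and 0 higher, beside 2.55% of all genes that were lower. The list's median log2 fold change was -0.40. Against the vehicle means, without a test, the list's median log2 ratio was 0.17 for OCA and -0.28 for INT-787. For 8 members the groups did not overlap, beside 0.302% of all genes without overlap in that direction.

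*Fgl1*, a fibrinogen-like protein secreted by hepatocytes, had 226, 272, and 419 CPM (lowest, median, highest) with OCA and 37.5, 45.1, and 110 CPM with INT-787. The highest INT-787 mouse was below the lowest OCA mouse, and the vehicle mean was 346 CPM. *Fgl1* was 5.06-fold lower with INT-787 than with OCA (log2 fold change -2.34 ± 0.19, adjusted p = 9.18e-08). The serum amyloid A genes encode apolipoproteins of the acute response. *Saa2* had 133, 158, and 263 CPM with OCA and 27.1, 49.7, and 70.0 CPM with INT-787, again with no overlap, and was 3.53-fold lower (adjusted p = 5.18e-07). *Saa1* was 3.40-fold lower (adjusted p = 1.75e-06) and *Saa3* lower by a log2 fold change of -1.09 (adjusted p = 0.00166). *Lcn2*, a neutrophil gelatinase-associated lipocalin that binds siderophores, had 530, 595, and 1304 CPM with OCA and 167, 224, and 315 CPM with INT-787. The top value was OCA replicate 8, and the groups did not overlap with or without it. *Lcn2* was 2.92-fold lower (log2 fold change -1.55, and -1.37 without that mouse, adjusted p = 5.90e-06 and 4.10e-07). The metal-binding metallothioneins *Mt2* (4.27-fold lower, adjusted p = 6.27e-05) and *Mt1* (3.33-fold lower, adjusted p = 4.88e-04) followed, and the orosomucoid *Orm2* was 2.52-fold lower (adjusted p = 5.90e-06). *Itih4*, an inter-alpha-trypsin inhibitor chain, *Serpina3n*, *Orm1*, and the metalloreductase *Steap4* were lower by log2 fold changes of -0.84, -0.65, -0.63, and -0.55. The other called members were haptoglobin (*Hp*), hemopexin (*Hpx*), serum amyloid P (*Apcs*), the fibrinogen chains *Fga* and *Fgg*, and the interleukin 1 receptor antagonist *Il1rn*, between -0.39 and -0.67. *Hpx* did not pass without OCA replicate 8 (adjusted p = 0.0564), nor *Fga* and *Fgg* without INT-787 replicate 8 (adjusted p = 0.0514 and 0.0531). The IL-6 pathway genes on the list did not pass, with log2 fold changes of 0.03 for *Socs3*, -0.03 for *Stat3*, and 0.07 for *Il6ra*, and *Il6* itself had 4 counts in the 18 mice together. *Crp* (-0.14) and *Hamp*, the iron hormone hepcidin (0.47), did not pass either.

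Promoters of genes that moved together are shown to let the sequence be read beside the values. The windows are from RefSeq (GRCm38.p6), hold the 250 bases before the start site, and are printed 5′ to 3′ on the gene's strand up to the first base that GENCODE M21 counts as the gene. The window was searched on both strands for TTCCNGGAA, a palindrome bound by STAT factors. It occurred in 2 of the 15 called acute phase genes that had a window (13.3%), *Fga* and *Steap4*. The same 2 were the only ones among the 27 tested genes of the list with a window (7.41%). Among genes in all it occurred in 295 of 27025 (1.09%), so the comparison rests on 2 genes. In these sequences, from chr3:83025903-83026075 (plus strand) for *Fga* and chr5:7960222-7960456 (plus strand) for *Steap4*, the match is in capitals and starts 234 and 116 bases before the start site. The neighboring genes *Saa1* (chr7:46742981-46743230, minus strand) and *Saa2* (chr7:46751583-46751789, plus strand) are printed because their windows were identical at 238 of 250 aligned bases, and they held no match to these letters.
Fga: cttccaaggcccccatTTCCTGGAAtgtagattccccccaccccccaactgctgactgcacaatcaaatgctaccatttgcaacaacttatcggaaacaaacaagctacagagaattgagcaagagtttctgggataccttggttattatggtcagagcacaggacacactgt
Steap4: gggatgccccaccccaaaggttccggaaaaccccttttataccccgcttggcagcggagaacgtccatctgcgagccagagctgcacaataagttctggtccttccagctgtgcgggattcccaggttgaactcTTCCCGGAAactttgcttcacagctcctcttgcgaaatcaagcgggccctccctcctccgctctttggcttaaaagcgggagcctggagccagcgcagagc
Saa1: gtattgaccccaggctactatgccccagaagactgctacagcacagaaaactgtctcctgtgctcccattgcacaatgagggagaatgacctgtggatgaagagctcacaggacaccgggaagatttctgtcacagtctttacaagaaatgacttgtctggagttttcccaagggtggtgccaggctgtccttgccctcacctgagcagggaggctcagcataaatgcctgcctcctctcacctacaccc
Saa2: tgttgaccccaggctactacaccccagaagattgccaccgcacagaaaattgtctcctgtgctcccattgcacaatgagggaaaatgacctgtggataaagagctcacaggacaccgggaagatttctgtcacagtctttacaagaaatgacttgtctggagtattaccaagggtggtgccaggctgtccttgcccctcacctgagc

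Matrix genes formed the other large group that was lower with INT-787. Of 34 noncollagen matrix and crosslinking genes, 16 (47.1%) were lower and 0 higher, beside 2.55% of all genes that were lower, and all 34 fold changes were negative, with a median of -0.73. Of 20 collagens, 9 (45.0%) were lower and 0 higher, with a median of -0.70. Against the vehicle means, without a test, the median log2 ratio of the collagens was 0.09 for OCA and -0.71 for INT-787, and that of the noncollagen genes 0.01 and -0.69. Without OCA replicate 8, 13 noncollagen genes and 5 collagens passed, with medians of -0.55 and -0.57, and without INT-787 replicate 8 14 and 7 passed. Leaving out OCA replicate 1 gave 13 and 5 too.

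*Col1a1*, the main chain of fibrillar collagen, had 319, 404, and 1085 CPM (lowest, median, highest) with OCA and 70.0, 173, and 279 CPM with INT-787. The vehicle mean was 406 CPM, and no INT-787 mouse reached the lowest OCA mouse. *Col1a1* was 2.99-fold lower with INT-787 (log2 fold change -1.58 ± 0.26, adjusted p = 0.00117), and the log2 fold change was -1.36 (adjusted p = 0.00120) without OCA replicate 8, which held the top value. *Col3a1* was 2.62-fold lower (adjusted p = 8.07e-04), and *Col1a2* and *Col5a2* were lower by log2 fold changes of -1.33 and -1.39, all 3 without overlap. *Col5a1* (-0.97) passed as well, and *Col14a1* (-0.37), *Col6a3*, *Col6a1*, and *Col4a1* passed with all 18 mice but not without OCA replicate 8 (adjusted p = 0.0577, 0.0523, 0.0936, and 0.0919), the last 2 also not without INT-787 replicate 8 (adjusted p = 0.0639 and 0.0529). Elastin (*Eln*), which gives tissue its recoil, had 11.7, 20.4, and 54.4 CPM with OCA and 2.79, 6.50, and 9.26 CPM with INT-787. It was 3.87-fold lower without overlap (adjusted p = 3.96e-04). The matrix protein tenascin C (*Tnc*, log2 fold change -1.70), the latent TGF-beta binding protein *Ltbp2* (-1.72), the crosslinking oxidases *Lox* (-1.79) and *Loxl2* (-0.98) likewise did not overlap. For *Ltbp2* one mouse weighed heavily, with OCA replicate 8 at 65.4 CPM and the next OCA mouse at 19.8 CPM, and the log2 fold change without it was -1.19 (adjusted p = 0.00326). *Mfap2*, *Vcan*, *Lum*, *Thbs2*, *Fstl1*, *Sparc*, and the collagen chaperone *Serpinh1* were lower by log2 fold changes between -0.78 and -1.54, and the remaining called members were *Mfap4*, *Fbln1*, *Pcolce*, and *Plod2*. Of these, *Mfap4*, *Fbln1*, and *Plod2* did not pass without OCA replicate 8 (adjusted p = 0.0550, 0.118, and 0.0856), with *Mfap4* moving from -1.16 to -0.66 and *Fbln1* from -1.30 to -0.73, nor *Fbln1* and *Plod2* without INT-787 replicate 8 (adjusted p = 0.0774 and 0.0691).

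Matrix turnover and contractile genes were lower too, in smaller numbers. Of 22 proteases and inhibitors, 5 (22.7%) were lower and 0 higher, beside 2.55% of all genes that were lower, and 5 passed without OCA replicate 8 and 4 without INT-787 replicate 8. *Timp1*, the tissue inhibitor of metalloproteinases, ranged from 6.37 to 10.4 CPM with OCA and from 0.838 to 3.32 CPM with INT-787, and the vehicle mean was 7.78 CPM. The groups were fully apart, and *Timp1* was 3.60-fold lower (log2 fold change -1.85 ± 0.20, adjusted p = 7.23e-06). *Adam8* (-1.10), *Adamts2* (-0.96), the macrophage elastase *Mmp12* (-0.80), and *Timp2* (-0.66) also passed, *Timp2* not without OCA replicate 8 (adjusted p = 0.101) or INT-787 replicate 8 (adjusted p = 0.0773). Among 17 contractile genes 5 (29.4%) were lower, namely smooth muscle actin (*Acta2*, -1.05, adjusted p = 2.28e-04), transgelin (*Tagln*, -1.03, adjusted p = 5.58e-05), *S100a6*, *Vim*, and *Tpm1*. *Vim* was at -0.70 with all mice and at -0.44 without OCA replicate 8 (adjusted p = 0.00749). Of 24 genes of the TGF-beta pathway, 0 passed by edgeR, beside 4.69% of all genes. The unadjusted 95% interval lay wholly below 0 for 5 of them. Of all 12263 tested genes, 2370 had an unadjusted p under 0.05 in either direction. The nearest to passing on this list were *Itgav* (-0.34, adjusted p = 0.0561) and *Tgfb3* (-0.76, adjusted p = 0.122), the latter at -0.36 without OCA replicate 8. Leaving out OCA replicate 3, OCA replicate 7, INT-787 replicate 2, or INT-787 replicate 5 gave 1 call on this list.

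Markers of stellate cells, the main source of liver collagen, are given beside these values. The summed level of 10 markers ranged from 1220 to 2760 CPM with OCA (highest in replicate 8) and from 632 to 1310 CPM with INT-787 (lowest in replicate 8), and no marker was at 0 in all mice. The sum includes *Col1a1* and *Col3a1*. Of the other 8 markers, *Ecm1* was higher with INT-787 and 7 did not pass, with log2 fold changes of -0.61 for *Pdgfrb*, -0.35 for *Dcn*, -0.33 for *Des*, -0.20 for *Lrat*, -0.17 for *Hand2*, -0.08 for *Reln*, and 0.04 for *Colec11*. The part of stellate cell number in the matrix result was not tested, and in whole liver fewer cells of a type and less RNA per cell cannot be told apart. Of 16 genes of quiescent stellate cells, 3 (18.8%) were higher with INT-787, beside 2.14% of all genes, namely *Fcna* (1.07, adjusted p = 0.00234), *Ecm1* (0.57), and *Vipr1* (0.57), and 0 were lower, with 5 calls when OCA replicate 3 was omitted.

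Macrophage genes were listed separately for lipid-associated and for other macrophages. Of 20 genes of lipid-associated macrophages, 9 (45.0%) were lower with INT-787 and 0 higher, beside 2.55% of all genes that were lower, with a median log2 fold change of -0.61, and 6 passed without OCA replicate 8 and 6 without INT-787 replicate 8. Leaving out INT-787 replicate 1 or OCA replicate 6 gave 5. Galectin-3 (*Lgals3*) had 54.0, 87.7, and 130 CPM with OCA and 25.4, 47.8, and 53.0 CPM with INT-787, with a vehicle mean of 103 CPM. The groups stood just apart, and *Lgals3* was 2.19-fold lower (log2 fold change -1.13 ± 0.16, adjusted p = 2.47e-04). Osteopontin (*Spp1*), which ductular cells make too, had 388, 762, and 1393 CPM with OCA and 270, 321, and 458 CPM with INT-787. These ranges overlapped, and *Spp1* was 2.17-fold lower (adjusted p = 0.00157). *Gpnmb*, a glycoprotein of lipid-laden macrophages, was lower by a log2 fold change of -1.12 (adjusted p = 0.0151), and *Mmp12* and *Cd9* passed with and without OCA replicate 8. The lipid receptor *Trem2* (-0.89), *Itgax* (-0.72), and *Cd63* (-0.63) passed with all mice but not without OCA replicate 8 (adjusted p = 0.0607, 0.0779, and 0.0798) or without INT-787 replicate 8 (adjusted p = 0.0538, 0.0508, and 0.0579). Of 21 Kupffer cell and general macrophage genes, 4 were called, beside 4.69% of all genes. The 3 lower ones, beside 2.55% of all genes, were *Cd68* (-0.60), *C1qb* (-0.52), and *C6* (-0.87). The 1 higher, beside 2.14% of all genes, was the scavenger receptor *Cd163* (2.01, adjusted p = 0.0406). Only *Cd68* passed without OCA replicate 8 (adjusted p = 0.0560 for *C1qb*, 0.0882 for *C6*, and 0.0706 for *Cd163*). Without INT-787 replicate 8, *C6* and *Cd163* did not pass (adjusted p = 0.0546 and 0.0841). Leaving out other single mice gave 1 to 4 calls on this list, with 1 when INT-787 replicate 9 was omitted. The summed level of 10 macrophage markers had a median of 809 CPM with OCA (611 to 1340) and of 679 CPM with INT-787 (at most 1000), and the part of macrophage number was not tested. Of 22 chemokines, receptors, and cytokines, 4 (18.2%) were lower and 0 higher, beside the same 2.55%. The chemokine *Cxcl14* ranged from 9.27 to 29.8 CPM with OCA and from 4.19 to 8.13 CPM with INT-787 (log2 fold change -1.43 ± 0.18, adjusted p = 6.55e-05). The monocyte receptor *Ccr2* (-0.88, adjusted p = 0.00600) and *Ccl6* (-0.55, adjusted p = 0.0499) were lower as well, *Ccl6* not without either replicate 8 (adjusted p = 0.0882 and 0.0813), and *Spp1* is on this list too.

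Complement and coagulation genes, most of them made by hepatocytes, were lower at 9 of 40 (22.5%), beside 2.55% of all genes, and higher at 0. *C8a*, a chain of the membrane attack complex, had 194, 361, and 623 CPM (lowest, median, highest) with OCA and 92.6, 168, and 260 CPM with INT-787. The ranges overlapped, and *C8a* was lower by a log2 fold change of -1.15 ± 0.21 (adjusted p = 0.00232). The terminal components *C9* (-0.52) and *C6* (-0.87), the regulator *Serping1* (-0.38), the receptor *C5ar1* (-0.75), and the coagulation genes *F11* (-0.53), *Cpb2* (-0.42), and *Pros1* (-0.34) passed too. The list as a whole was near 0, with a median of -0.04. Of the 31 uncalled genes 7 had an unadjusted 95% interval wholly above 0 and 3 wholly below, beside 2370 of all 12263 tested genes with an unadjusted p under 0.05. Leaving out INT-787 replicate 8 gave 7 calls and OCA replicate 8 gave 6, those lost in the latter being *C5ar1*, *Serping1*, and *C6* (adjusted p = 0.0502, 0.0607, and 0.0882), and *C5ar1* and *C6* did not pass without INT-787 replicate 8 either (both adjusted p = 0.0546). With INT-787 replicate 3 omitted 4 genes passed, and with OCA replicate 1, INT-787 replicate 6, or INT-787 replicate 9 omitted 5 passed.

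Conjugating and oxidizing enzymes went the other way. Of 39 phase II and NRF2 genes, 14 were higher with INT-787 and 1 lower (38.5% called, beside 4.69% of all genes), with a median log2 fold change of 0.31 and 15 calls without OCA replicate 8 and 15 without INT-787 replicate 8. The glutathione S-transferases, which attach glutathione to reactive compounds, made up 11 of the 14. *Gstm1* had 2863, 3793, and 4792 CPM with OCA and 4953, 5541, and 8662 CPM with INT-787, with a vehicle mean of 4127 CPM. No INT-787 mouse was as low as the highest OCA mouse, and *Gstm1* was 1.56-fold higher (log2 fold change 0.64 ± 0.12, adjusted p = 0.00409). *Gstm3* had 701, 912, and 1717 CPM with OCA and 1459, 2090, and 3732 CPM with INT-787, and was 2.19-fold higher despite some overlap (adjusted p = 0.00157). *Gsta2* was 2.18-fold higher (adjusted p = 8.07e-04). *Gstt1*, *Gstt2*, *Gstt3*, *Gstm2*, *Gstm4*, *Gstm6*, *Gsta3*, and *Gsta4* were higher by log2 fold changes of 0.44 to 0.76, as were the sulfotransferases *Sult1a1* (0.73), *Sult1b1* (0.63), and *Sult2a8* (1.22). Several classical NRF2 targets on the list did not pass, with log2 fold changes of 0.48 for *Nqo1* (adjusted p = 0.0834), -0.01 for *Gclc*, and -0.02 for *Hmox1*, and the peroxiredoxin *Prdx1* was lower (-0.29, adjusted p = 0.0451). The bilirubin and drug glucuronosyltransferase family member *Ugt1a9*, named for its size of change, was 2.496-fold higher without overlap (adjusted p = 9.80e-05).

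The core of the antioxidant response element bound by NRF2, TGACNNNGC, was found on either strand in 2 of 13 called phase II genes with a promoter window (15.4%), *Prdx1* and *Gsta3*, and in 3112 of 27025 genes in all (11.5%), so the share was near the background. The window of *Gsta3* (RefSeq GRCm38.p6, chr1:21240335-21240584, plus strand) is printed as an example from the transferases, with the match, which starts 121 bases before the start site, in capitals. The IR-1 inverted repeat bound by FXR was found in 11 of 27025 genes (0.0407%) and in 0 of 20 windows of the FXR and bile acid list. A sequence this rare would seldom occur in 20 windows, so no conclusion about FXR sites was drawn from its absence.
Gsta3: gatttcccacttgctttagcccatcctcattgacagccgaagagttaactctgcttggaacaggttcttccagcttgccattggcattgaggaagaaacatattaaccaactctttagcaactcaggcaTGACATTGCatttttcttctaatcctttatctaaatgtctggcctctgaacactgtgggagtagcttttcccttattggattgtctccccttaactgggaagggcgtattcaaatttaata

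Of 34 cytochrome P450 and flavin monooxygenase genes, 5 were higher and 1 lower (17.6% called, beside 4.69% of all genes), with a median of 0.32, and 13 passed when OCA replicate 3 was omitted. *Cyp2c38*, an arachidonate-metabolizing P450, had 54.0, 135, and 170 CPM with OCA and 208, 310, and 430 CPM with INT-787, and the vehicle mean was 128 CPM. The lowest value was OCA replicate 8, followed by 120 CPM in the next OCA mouse, and the groups did not overlap in either case. *Cyp2c38* was 2.30-fold higher with INT-787 (log2 fold change 1.20, and 1.10 without that mouse, adjusted p = 1.84e-04 and 1.47e-05). *Cyp2c39* was 2.56-fold higher (adjusted p = 5.12e-04), and *Cyp3a59* (0.68) and *Cyp3a25* (0.48) passed too. *Cyp2a4* was lower (-1.50, adjusted p = 0.0414), but not without either replicate 8 (adjusted p = 0.0609 and 0.0626).

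Cholesterol synthesis genes were higher in small steps. Of 27 genes of this pathway and other targets of SREBP2, 9 (33.3%) were higher with INT-787 and 0 lower, beside 2.14% of all genes that were higher, 26 had a positive fold change, and the median was 0.46. Against the vehicle means, without a test, the median log2 ratio was 0.04 for OCA and 0.44 for INT-787. *Mvd*, mevalonate diphosphate decarboxylase, had 3.18, 6.04, and 9.56 CPM with OCA and 6.09, 12.03, and 25.8 CPM with INT-787. Overlap was partial, and *Mvd* was 2.23-fold higher (log2 fold change 1.16 ± 0.24, adjusted p = 0.00649). *Sqle*, squalene epoxidase, had a similar log2 fold change of 1.17 ± 0.34 (adjusted p = 0.0475) that did not pass without INT-787 replicate 8 (0.88, adjusted p = 0.0981). *Idi1* (0.78), *Msmo1* (0.62), *Tm7sf2* (0.60), *Nsdhl* (0.58), *Dhcr7* (0.47), *Hsd17b7* (0.46), and *Fdft1* (0.42) were the other called members. *Idi1* and *Fdft1* did not pass without OCA replicate 8 (adjusted p = 0.0661 and 0.0607) or without INT-787 replicate 8 (adjusted p = 0.0674 and 0.0691). INT-787 replicate 8 was above all other INT-787 mice at 16 of the 27, and OCA replicate 8 below all other OCA mice at 8. Over all 12263 tested genes these counts were 2529 and 2473. Without both mice, 3 genes passed (*Mvd*, *Msmo1*, and *Dhcr7*) and the median was 0.35. Leaving out OCA replicate 1, OCA replicate 6, or INT-787 replicate 1 alone gave 4 calls each. With neighbouring label numbers as a block (16 mice), 17 passed.

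The sterol regulatory element TCACNCCAC was found on either strand in 1 of 19 tested genes of the list that had a window, *Hmgcs1*, in 0 of the 7 called ones, and in 331 of 27025 genes in all (1.22%). *Hmgcs1*, the synthase that makes HMG-CoA, did not pass (0.55, adjusted p = 0.0758). Its window (RefSeq GRCm38.p6, chr13:119690101-119690350, plus strand) shows the match in capitals, starting 137 bases before the start site.
Hmgcs1: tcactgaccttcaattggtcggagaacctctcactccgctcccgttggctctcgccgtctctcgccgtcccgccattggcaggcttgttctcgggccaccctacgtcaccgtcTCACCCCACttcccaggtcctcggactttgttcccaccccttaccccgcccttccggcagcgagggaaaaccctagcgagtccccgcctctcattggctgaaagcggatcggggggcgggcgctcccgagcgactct

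On the other lipid lists the called shares, given below, ran from 3.03% to 9.68%, beside 4.69% of all genes. *Acss2*, which makes acetyl-CoA from acetate for lipid synthesis, had 67.9, 88.1, and 121 CPM with OCA and 131, 151, and 229 CPM with INT-787, with a vehicle mean of 113 CPM. The groups did not overlap, and *Acss2* was 1.85-fold higher (log2 fold change 0.89 ± 0.13, adjusted p = 2.16e-04). Of 31 lipogenesis genes, *Elovl5* and *Lpin2* were the other 2 called, both lost without OCA replicate 8 (adjusted p = 0.0880 and 0.0745), *Lpin2* also without INT-787 replicate 8 (adjusted p = 0.0606), and 1 gene of the list passed when any one of OCA replicates 1, 6, and 7 or INT-787 replicates 1, 2, 3, 5, and 6 was omitted. Of 35 fatty acid oxidation genes, 2 (5.71%) were higher, *Decr2* (0.48) and *Eci1* (0.35), and of 18 lipid droplet genes 1, *Hsd17b13* (0.41, adjusted p = 0.0328). Without OCA replicate 8, *Eci1* and *Hsd17b13* did not pass (adjusted p = 0.0647 and 0.0606). With single mice omitted in turn, the oxidation list had 0 to 5 calls (5 without OCA replicate 3) and the droplet list 0 or 1. The cholesterol efflux transporter *Abcg1* was lower (-0.47, adjusted p = 0.00562), the only call among 33 apolipoprotein, receptor, and sterol transport genes, of which 2 passed when OCA replicate 3 was omitted.

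Among the remaining metabolic lists, 3 of 40 urea cycle and amino acid genes (7.5%) were higher, beside 2.14% of all genes, namely *Bhmt* (0.66), *Cth* (0.59), and *Amdhd1* (0.50), which act in methionine, cysteine, and histidine metabolism. That count was 7, 5, and 6 with OCA replicate 3, OCA replicate 7, and INT-787 replicate 2 omitted. The insulin-like growth factor binding protein *Igfbp2* had 73.2, 159, and 200 CPM with OCA and 196.5, 253, and 454 CPM with INT-787, against a vehicle mean of 74.6 CPM. Its ranges touched only narrowly, and it was 1.78-fold higher (adjusted p = 0.00600). *Ppp1r3g*, a glycogen-targeting phosphatase subunit, was the other call among 24 glucose genes (1.20, adjusted p = 0.0406) and was lost without either replicate 8 (adjusted p = 0.0606 and 0.0562).

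Calls on the stress and growth lists were 2 of 19 immediate early (10.5%), 2 of 18 heat shock, 1 of 32 unfolded protein, 1 of 35 lysosome, and 2 of 33 cell cycle genes (6.06%), beside 4.69% of all genes. With a single mouse omitted the unfolded protein list had up to 3 calls (2 with OCA replicate 8 omitted, 3 with INT-787 replicate 8 omitted), the lysosome list 0 to 3, and the cell cycle list up to 4 (OCA replicate 3 omitted). The immediate early gene *Jun* had 29.8, 38.8, and 46.9 CPM with OCA and 46.8, 63.8, and 74.1 CPM with INT-787, with a vehicle mean of 56.8 CPM. OCA mice lay below the vehicle mean, the groups overlapped only at their ends, and *Jun* was 1.602-fold higher with INT-787 (log2 fold change 0.68 ± 0.11, adjusted p = 5.70e-04). *Zfp36*, an RNA-destabilizing protein, was the other call among 19 such genes (0.38, adjusted p = 0.0380), lost without OCA replicate 8 (adjusted p = 0.0652) and without INT-787 replicate 8 (adjusted p = 0.0503). The heat shock gene *Hspb1* was higher (0.69) and *Hspa1b* lower (-1.03), the endoplasmic reticulum gene *Sdf2l1* was lower (-0.93), and the lysosomal protease *Ctss* was lower (-0.61), but not without OCA replicate 8 (adjusted p = 0.0577). Cyclin D1 (*Ccnd1*), which drives entry into the cell cycle, had 162, 228, and 339 CPM with OCA and 284, 388, and 469 CPM with INT-787, and was higher (0.61 ± 0.15, adjusted p = 0.0175). Among 33 cell cycle genes the other call was the mitotic kinase *Aurkb*, which was lower (-1.16, adjusted p = 0.0204). The list had a median of -0.42, and of -0.25 without both replicate 8 mice, of which the OCA mouse was above all other OCA mice at 20 of the 33.

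On 4 lists 0 genes passed by edgeR, beside 4.69% of all tested genes, a share that gives lists of this size few calls. The 4 lists were the TGF-beta pathway above, 24 sinusoidal endothelial genes, 33 interferon and antigen presentation genes, and 20 circadian clock genes. Unadjusted p was under 0.05 for 5, 1, 1, and 2 of their genes, beside 2370 of all 12263 tested genes. DESeq2 called 1, 0, 0, and 0, and limma-voom called 0 on each. The endothelial list had 1 call when INT-787 replicate 9 was omitted. The smallest p among the endothelial genes belonged to *Fcgr2b* (-0.36, 95% interval -0.63 to -0.08) and *Ehd3* (0.27, interval -0.01 to 0.55). Among the clock genes, *Cry2* had a log2 fold change of 0.23. *H2-K1*, a class I antigen presentation gene, had a log2 fold change of 0.27 (interval 0.00 to 0.53), with INT-787 replicate 8 at 2880 CPM and the next mouse of its group at 1524 CPM, and the class II gene *H2-Ab1* had one of -0.44 (interval -0.91 to 0.03). These were 0.12 for *H2-K1* without INT-787 replicate 8 and -0.21 for *H2-Ab1* without OCA replicate 8. The median of the interferon list was 0.05 with all mice and -0.23 without INT-787 replicate 8. The cholangiocyte list had a single call, *Spp1*, among 18 genes (5.56%), near the 4.69% of all genes, and 2 calls when OCA replicate 8 was omitted. Its summed markers reached 195 CPM in OCA replicate 8 beside a median of 78.7 CPM in the OCA mice and 70.5 CPM in the INT-787 mice.

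**Figure D4:**
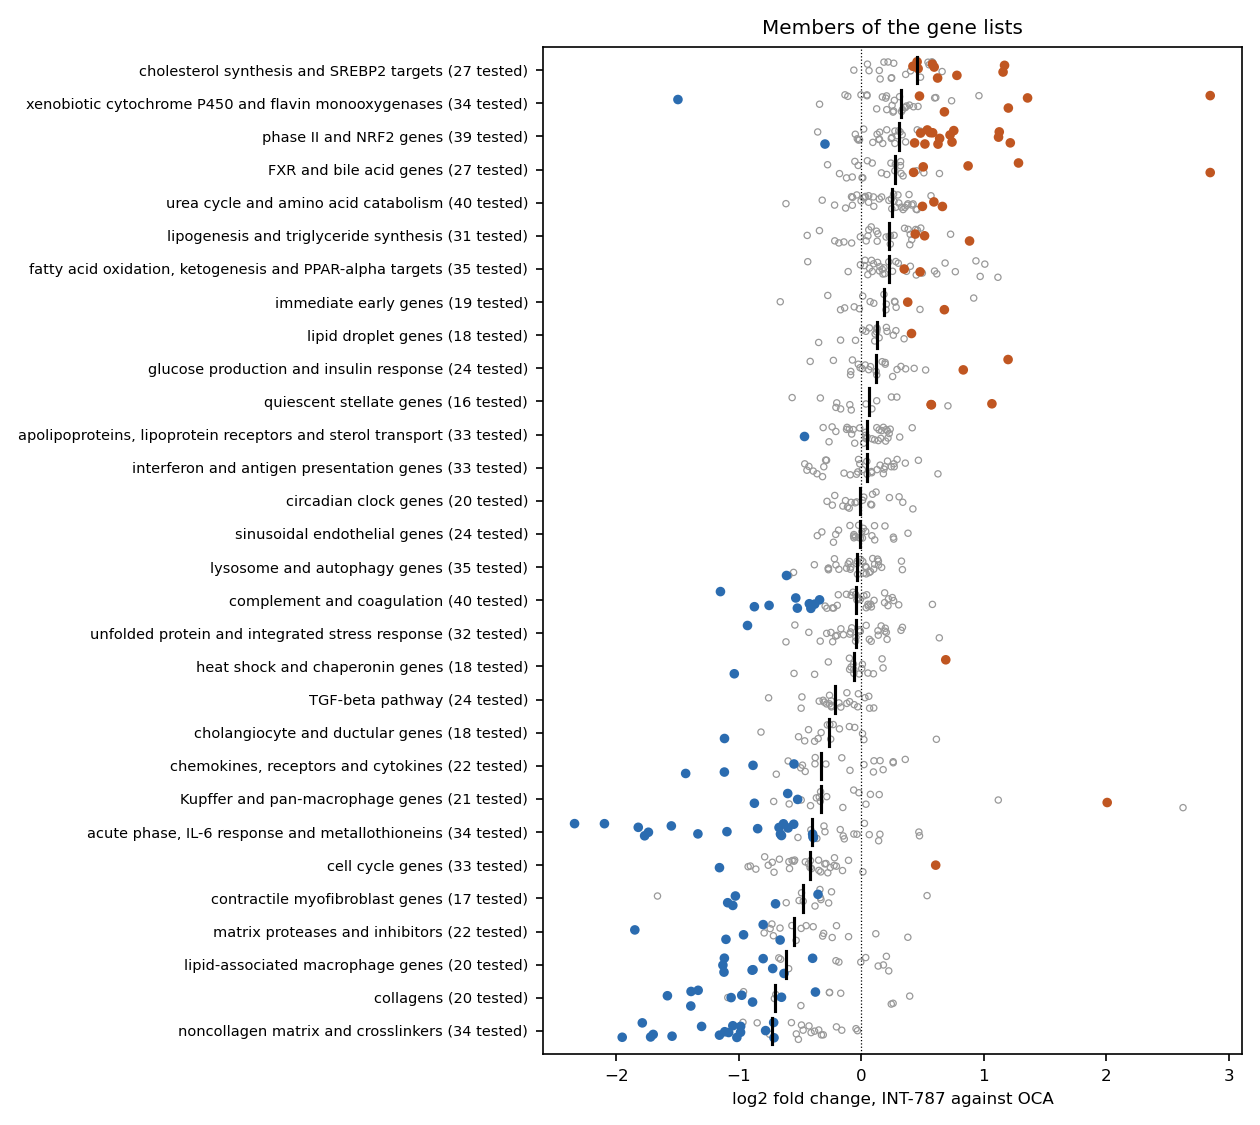
Log2 fold change of INT-787 over OCA (horizontal axis) for every tested member of the 30 gene lists, ordered by median (black bars); filled points passed the test, in orange where higher and in blue where lower with INT-787, and open gray points did not. The noncollagen matrix list is lowest with a median of -0.73 and the cholesterol synthesis list highest with 0.46.

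Some calls were lost when a single replicate 8 was left out. Among the calls lost without OCA replicate 8, those with the smallest p were *Col6a3*, the B cell and macrophage receptor gene *Cd180*, the adhesion molecule *Ncam1*, the macrophage perforin *Mpeg1*, and *Uhrf1bp1l*, with adjusted p from 0.0507 to 0.0527 without that mouse. Among those lost without INT-787 replicate 8 they were *Dennd2d*, *Fahd2a*, the lysophospholipid transporter *Mfsd2a*, *Pspc1*, and the glycolytic enzyme *Pkm*, with adjusted p from 0.0508 to 0.0547. Of these, *Fahd2a*, *Pspc1*, and *Pkm* did not pass without OCA replicate 8 either (adjusted p = 0.0549, 0.0562, and 0.0591).

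**Figure D5:**
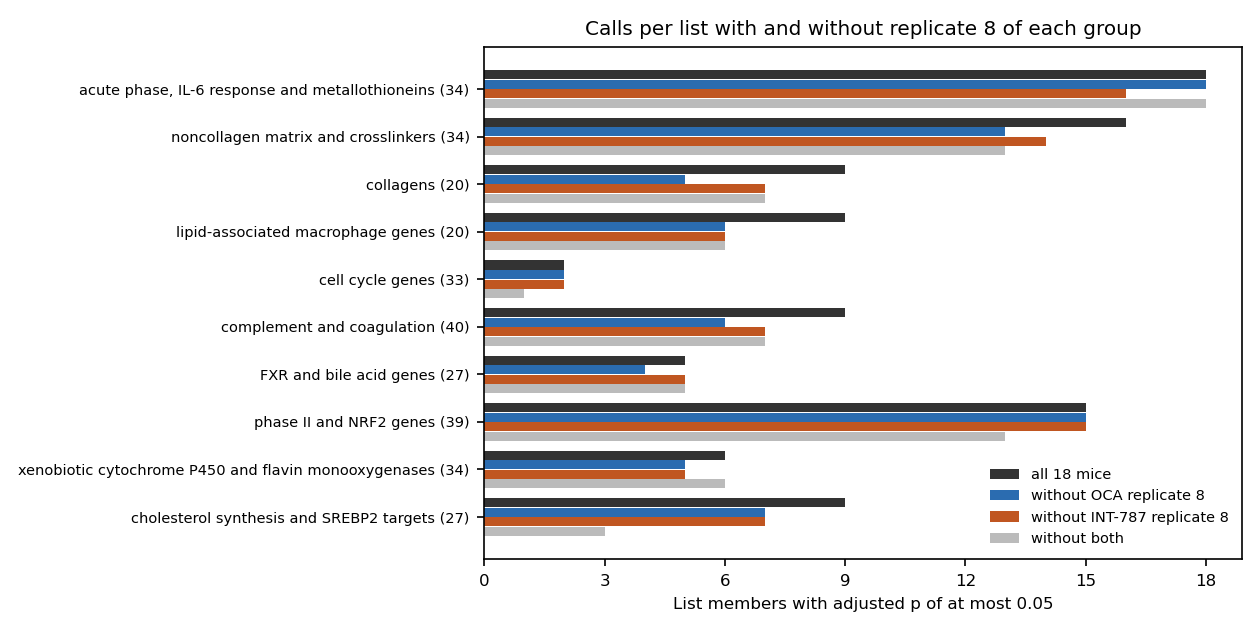
Number of members with an adjusted p of at most 0.05 on 10 lists (number tested in parentheses), with all 18 mice, without OCA replicate 8, without INT-787 replicate 8, and without both. The acute phase list had 18, 18, 16, and 18 calls, and the cholesterol synthesis list 9, 7, 7, and 3.

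Reads of closely related genes may have been shared between copies, which concerns *Saa1* and *Saa2*, *Serpina1e*, *Orm1* and *Orm2*, the *Gsta*, *Gstm*, *Cyp2c*, and *Cyp3a* families, and *Ugt1a9*, whose last exons are shared with the other *Ugt1a* genes. Exons of *Tagln*, *Dennd2d*, *Ccnd1*, *Acss2*, *Fdft1*, and *Ltbp2* overlap exons on the opposite strand by 1349, 1178, 1100, 927, 774, and 764 bases, other named genes have shorter overlaps, and without a statement that strand was used in counting, reads of the 2 strands cannot be told apart there.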

How the data were processed

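Liver RNA of 28 mice was sequenced (polyadenylated RNA, TruSeq stranded kit, NextSeq 500). The authors aligned the reads to GRCm38 with STAR and deposited raw counts per gene. The counting program and its use of strand are not given in the sources used here. Each library was labelled as a separate mouse, and groups were taken from the labels. Symbols and coordinates came from GENCODE M21, which matched 21858 of 21935 genes.

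Counts of the 9 INT-787 and 9 OCA mice were fitted with edgeR 4.0.16 (quasi-likelihood test, filterByExpr, TMM) in R 4.3.3, with Benjamini-Hochberg adjustment over 12263 genes. Totals of the treated mice ran from 10990531 to 22421506. Vehicle totals ran from 1009593 to 18342272, and vehicle values entered no test. Two-sided tests were used. Alternatives were run in edgeR, DESeq2 1.42.0, and limma 3.58.1. The fit was tested on simulated data. Figures were drawn with matplotlib 3.10.9. No 2 treated libraries were alike within sampling noise.

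The genes named were the 12 with the largest change in each direction (adjusted p of at most 0.05 with all mice and without either replicate 8, and at least 5 CPM on average), the 10 with the smallest p, the called members of 30 gene lists, 7 FXR readouts, and the 5 calls with the smallest p lost without each replicate 8. Where more than 12 members of a list passed, the rule named 12, and the others were added after their values were seen, as were *Hmgcs1* and the uncalled marker, IL-6, and NRF2 genes. The comparison, the members, and the lists were chosen with earlier results of these data known. Some genes that the rule named are not reported here.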

Additional observations from a re-analysis of the deposited data

Results flagged for a closer look

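For each gene named in the report, and for total counts, the highest and the lowest mouse of each group of 9 were compared with the nearest of the others, and a mouse was picked out where its gap exceeded Dixon's 95% critical value. Among 354 groups of values 48 mice were picked out, 29 times OCA replicate 8, and chance alone picks out about 5 in 100. Values below are CPM, each with that of the nearest other mouse of the group.

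OCA replicate 8 was high for genes of matrix, myofibroblasts, and stellate cells, namely *Col1a1* (1085, next 693), *Col1a2* (790.0, next 427), *Col5a2* (54.6, next 34.6), *Col6a1* (209, next 114), *Ltbp2* (65.4, next 19.8), *Mfap2* (8.16, next 3.46), *Fstl1* (69.2, next 40.5), *Sparc* (579, next 282), *Mfap4* (37.6, next 13.8), *Fbln1* (39.0, next 13.7), *Pcolce* (45.4, next 28.1), *S100a6* (31.1, next 17.8), *Vim* (315, next 140.4), *Tgfb3* (23.1, next 9.13), and *Hand2* (27.8, next 17.4). It was also high for genes of macrophages and antigen presentation, *Adam8* (17.2, next 9.17), *Cd9* (176, next 117), *Itgax* (42.7, next 28.8), *Cd68* (88.4, next 62.0), *C5ar1* (21.5, next 11.8), *Ctss* (378, next 232), and *H2-Ab1* (425, next 247), and for *Akr1b7* (13.4, next 6.96), *Lcn2* (1304, next 746), *Ncam1* (16.1, next 8.09), and *Pkm* (110.4, next 76.8). It was low for the P450 genes *Cyp2c38* (54.0, next 119.7), *Cyp3a59* (28.8, next 71.1), and *Cyp3a25* (251, next 416).

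Other mice were picked out at few genes each. INT-787 replicate 1 was high for *Serpinh1* (53.2, next 37.8). INT-787 replicate 2 was low for *Fgg* (1989, next 2625). INT-787 replicate 3 was high for *Uhrf1bp1l* (88.9, next 70.8). INT-787 replicate 4 was high for *Cyp8b1* (43.4, next 3.60) and *Serpina1e* (4.13, next 2.77). INT-787 replicate 5 was low for *Hspb1* (13.9, next 19.6). INT-787 replicate 8 was high for *Socs3* (16.3, next 7.12) and *H2-K1* (2880, next 1524). INT-787 replicate 8 was low for *Reln* (36.6, next 110.0). INT-787 replicate 9 was high for *Fcgr2b* (50.8, next 37.6). OCA replicate 2 was high for *Stat3* (107, next 76.9). OCA replicate 3 was high for *Sult2a8* (30.5, next 13.1). OCA replicate 4 was high for *Cyp8b1* (28.6, next 7.60). OCA replicate 5 was high for *Cd163* (1.45, next 0.735). OCA replicate 6 was high for *Apcs* (146, next 108) and *Hamp* (596, next 372). OCA replicate 7 was high for *Fgl1* (419, next 299) and *Saa2* (263, next 197). OCA replicate 9 was high for *Gsta4* (398, next 276).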

How the results depend on the processing

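None of the 575 calls changed sign in any setting run, and of 2286 gene results under alternatives other than leaving out 1 mouse, 1907 kept their side of the threshold, 362 lost the call, 17 gained one, and 0 reversed. DESeq2 called 914 genes (430 higher, 484 lower), limma-voom 541, edgeR with robust estimation 544, with DESeq2 size factors 568, without a filter 510, with 10 counts in every mouse 520, and with counts thinned to 10990531 per mouse 538. Upper-quartile scaling gave 586 (211 higher, 375 lower), with a median of all genes at -0.0336, and a model of 3 groups gave 677.

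At an adjusted p of at most 0.01, 186 genes passed (82 higher, 104 lower), with 5 collagens, 10 noncollagen matrix, 3 lipid-associated macrophage, 2 cholesterol synthesis, and 6 phase II genes. With a change of 1 or more on the log2 scale required as well, 117 passed (32 higher, 85 lower), with 5 collagens, 3 macrophage, 2 cholesterol, 8 acute phase, and 3 phase II genes. Replicates 1 to 5 alone gave 106 (48 higher, 58 lower), with 2 collagens and 3 matrix, 1 macrophage, 1 cholesterol, 11 acute phase, and 7 phase II genes. Replicates 6 to 9 alone gave 41 (14 higher, 27 lower), with 3 collagens and 5 matrix, 3 macrophage, 0 cholesterol, 4 acute phase, and 0 phase II genes. Both subsets have fewer mice. Without both replicate 8 mice, 3 cholesterol genes passed.

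Leaving out 1 mouse at a time gave 391 (without OCA replicate 1) to 792 genes (without OCA replicate 3), 168 to 328 higher and 215 (without OCA replicate 8) to 464 lower. The list counts were 5 to 13 for collagens (5 without OCA replicate 1 and without OCA replicate 8), 13 to 17 for matrix, 5 to 11 for macrophages (5 without INT-787 replicate 1 and without OCA replicate 6), 4 to 10 for cholesterol (4 without OCA replicate 1, without INT-787 replicate 1, and without OCA replicate 6), 15 to 18 for acute phase, and 11 to 17 for phase II genes. Without INT-787 replicate 6, 174 genes were higher.

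The replicate numbers were not taken to pair the mice, since nothing in the labels says that they do. Deviations of same-numbered mice correlated between -0.196 and 0.387 (median 0.184, 6 of 9 pairs over 0.1). The median of the 72 other pairs was -0.02, and 9 of 18 mice correlated best with the mouse of their own number. Same-numbered mice thus tended to be more alike than others, and the main fit holds no block for this. With the number as a replicate block 707 genes passed, 479 of them among the 575, and more were higher (378) than lower (329), against 262 and 313 without it. With neighbouring label numbers as a block (16 mice), 735 passed, 423 of them higher, with 17 cholesterol genes. The cause of these shifts was not tested. In a simulation of this comparison, 91 of 100 genes with a log2 fold change of 1 and 46 of 97 with one of 0.5 were called, so small differences can be missed at this depth and group size.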
